A study of Mus musculus with 12 samples.

Results

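The phagocyte NADPH oxidase was followed through 6 of its genes in macrophages with a Cre-mediated deletion of Trsp, the gene for the selenocysteine tRNA that selenoproteins need, and in their controls. The members were chosen by name from the known makeup of the enzyme and not by a rule on their values. Earlier results of these data were known at that point, so the choice was not blind to them. Cybb and Cyba encode the membrane subunits, Ncf1 and Ncf4 cytosolic subunits, and Rac1 and Rac2 the small GTPases. Every probe set that carried 1 of these symbols alone was taken, which gave 13 probe sets of 34945 with a single symbol and 6 genes of 18193. Other subunits named in the lists below are not analysed here unless a value is given. Bone marrow-derived macrophages (BMDMs), the macrophages that grow from marrow cells in culture, came from female c57bl6 mice and were differentiated for 7 days with M-CSF. The ΔTrspM cells had the genotype Trspfl/fl-LysM-Cre+/- and the control cells Trspfl/fl-LysM-Cre-/-, so both carried floxed alleles of Trsp. Cre is driven by the lysozyme M promoter, which is active in myeloid cells. Cells of each genotype were stimulated for 4 h with LPS, the bacterial lipopolysaccharide that activates toll-like receptor 4, or left unstimulated. There were 3 arrays in each of the 4 groups (LPS-stimulated ΔTrspM, LPS-stimulated control, unstimulated ΔTrspM and unstimulated control), 12 in all. The age of the mice and the LPS dose of the array cultures are not given in the sources used here.

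The oxidase moves electrons from NADPH across a membrane to oxygen and so makes superoxide, the first product of the respiratory burst. In a resting phagocyte the flavocytochrome (the products of Cybb and Cyba) lies in the membrane apart from the cytosolic subunits. On stimulation the organizer subunit encoded by Ncf1 is phosphorylated, the cytosolic complex moves to the membrane, and Rac loaded with GTP completes the active enzyme. Loss of single subunits causes chronic granulomatous disease in people. Selenoproteins such as the glutathione peroxidases remove peroxides, which is the link between the enzyme and the cells studied here.

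The region before the start of a gene is shown for the 3 of 6 members that matched a RefSeq promoter window (build GRCm38.p6, 250 bases before to 50 after the annotated start, printed 5′ to 3′ on the strand of the gene). No window was at hand for Ncf4, Rac1 and Rac2, so the 3 were not chosen by their response to LPS. Capitals mark matches on either strand to GAGGAA (the core of the PU.1 site), TTTCNNTT (part of the interferon-stimulated response element, ISRE), TGANTCA (AP-1), GGGANTTTC (part of the NF-κB consensus) or TATAAA, with overlapping matches counted. The windows lie at chrX:9469275-9469574 (minus strand) for Cybb, at chr8:122432891-122433190 (minus strand) for Cyba and at chr5:134229576-134229875 (minus strand) for Ncf1.
Cybb: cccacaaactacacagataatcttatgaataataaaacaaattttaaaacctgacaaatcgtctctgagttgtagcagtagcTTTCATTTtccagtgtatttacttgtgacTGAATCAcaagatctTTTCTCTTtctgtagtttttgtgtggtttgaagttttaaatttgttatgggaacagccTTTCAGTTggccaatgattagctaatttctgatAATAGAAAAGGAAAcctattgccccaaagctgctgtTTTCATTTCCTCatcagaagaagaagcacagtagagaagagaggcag
Cyba: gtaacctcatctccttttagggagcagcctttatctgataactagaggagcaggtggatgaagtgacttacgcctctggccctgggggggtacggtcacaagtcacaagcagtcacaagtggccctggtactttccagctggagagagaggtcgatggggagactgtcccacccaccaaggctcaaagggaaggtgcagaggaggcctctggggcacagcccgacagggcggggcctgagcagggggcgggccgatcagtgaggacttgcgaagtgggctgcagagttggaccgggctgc
Ncf1: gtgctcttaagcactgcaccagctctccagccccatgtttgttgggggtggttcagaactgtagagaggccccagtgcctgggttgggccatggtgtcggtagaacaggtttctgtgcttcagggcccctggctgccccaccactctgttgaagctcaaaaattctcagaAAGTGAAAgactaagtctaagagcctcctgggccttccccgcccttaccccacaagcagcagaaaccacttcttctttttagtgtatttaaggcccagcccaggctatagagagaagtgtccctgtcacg

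The Cybb window held 6 matches to TTTCNNTT, 1 to GAGGAA and 1 to TGANTCA. At least 1 match to TTTCNNTT was found in 23.9% of 32851 promoter windows of the same length. In 4 of them (0.0122%), the Cybb window included, 6 or more were found. The cutoff of 6 was the count in the Cybb window itself, and the base composition of the windows was not allowed for. That share is therefore a description and not a test. A match to GAGGAA was found in 28.3% of the windows and a match to TGANTCA in 7.81%. The Ncf1 window held 1 match to TTTCNNTT and no other, and the Cyba window held no match to any of the 5 motifs. GGGANTTTC (1.11% of windows) and TATAAA (13.6%) were not found in the 3 windows. These are matches of letters, and binding of a factor was not measured.

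Each array reported 1 linear signal intensity for each probe set. The mean signal of an array was 199.7 for replicate 2 of LPS-stimulated ΔTrspM macrophages and ranged from 492 to 861 for the other 11, and 47.7% of the probe sets of the first had a signal under 16, against 16.1% to 28.8% of the others. The signals were therefore quantile-normalized and are given as log2 of the normalized signal plus 16. Without this scaling, the median log2 fold change of all genes after LPS in ΔTrspM macrophages was -0.73 and only 7.83% of the genes that passed the test were higher, against a median of -0.03 and 46.1% with it. No probe set for Trsp was analysed here, and the genotype labels are therefore taken as given. The LPS labels were checked with 8 genes known to be induced by LPS (among them Tnf, Il1b and Nos2), of which 8 of 8 rose in both genotypes. The 8 macrophage markers measured had summed normalized signals of 64774 to 71054 in LPS-stimulated ΔTrspM, 64922 to 70107 in LPS-stimulated control, 63327 to 66856 in unstimulated ΔTrspM and 62899 to 74341 in unstimulated control macrophages. The neutrophil markers, of which 9 of 12 were measured, are given below with Cybb, since neutrophils also carry the oxidase. The 9 stromal markers summed to 2997 to 9404 in LPS-stimulated ΔTrspM and 4262 to 4948 in LPS-stimulated control macrophages. In unstimulated cells they summed to 940 to 8271 in ΔTrspM and 514 to 7383 in control. The lymphoid markers (7 of 8 measured) summed to 885 to 1283, 1189 to 1289, 214 to 295 and 264 to 300 in the same order of groups. The part of such cells in the values was not tested. The replicates are labelled biological, but whether each came from a mouse of its own is not given, and the p-values then reflect no more than the spread among these cultures, which may be technical.

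Across the 6 members, Cybb was higher after LPS in ΔTrspM macrophages, and no other member passed the test for LPS in either genotype. Called here means an adjusted p under 0.05 from limma after Benjamini-Hochberg adjustment over all 18193 genes. After LPS, 1 of 6 members was called in ΔTrspM macrophages, where 15.8% of all genes were called, and 0 of 6 in control macrophages, where 15.6% of all genes were called. Both shares include dim genes, while the probe sets used for the members were bright. The median log2 fold change of the 6 members after LPS was 0.16 in ΔTrspM and 0.12 in control macrophages, beside -0.03 and -0.05 for all genes. Between ΔTrspM and control macrophages 0 of 6 members were called after LPS (0.011% of all genes were), 0 of 6 in unstimulated cells (0% of all genes) and 0 of 6 over both stimuli together (0.022% of all genes). At an unadjusted p under 0.05, limma gave 0, 0 and 1 of the 6 members in these 3 comparisons, and the 1 was Ncf4. The median log2 difference of the 6 members between the genotypes was -0.04 after LPS and -0.08 in unstimulated cells, beside 0.04 for all genes in both.

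**Figure D1:**
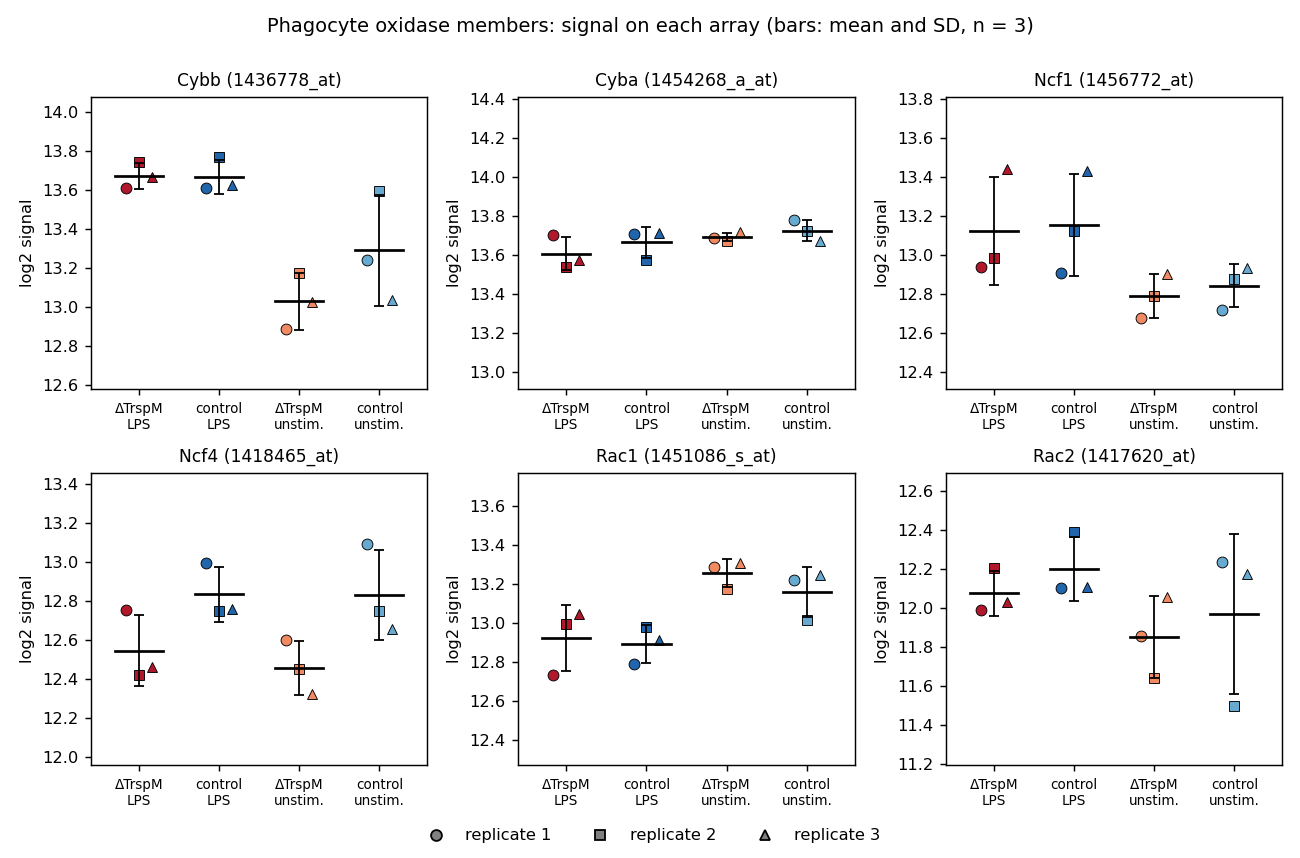
Log2 signal (vertical axis) of the probe set used for each of the 6 members on each of the 12 arrays, by group (horizontal axis); every panel spans the same number of log2 units, symbols give the replicate number, and black lines the mean and SD (n = 3). The LPS arrays of Cybb lie at 13.61 to 13.77 and above the unstimulated arrays of both genotypes, those of Rac1 lie at 12.73 to 13.05, and the ΔTrspM arrays of Ncf4 lie below the same-numbered control arrays.

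Cybb encodes the catalytic subunit of the flavocytochrome, which carries the electrons. The log2 signal of its brightest probe set (1436778_at) was 13.61, 13.74 and 13.66 in LPS-stimulated ΔTrspM macrophages (replicates 1, 2 and 3, the order used throughout). In LPS-stimulated control macrophages it was 13.61, 13.77 and 13.62. It was 12.88, 13.18 and 13.03 in unstimulated ΔTrspM macrophages and 13.24, 13.59 and 13.03 in unstimulated control macrophages. The LPS arrays of each genotype thus lay above all of its unstimulated arrays, and the genotypes overlapped with either stimulus. In ΔTrspM macrophages Cybb was 1.56-fold higher after LPS (log2 fold change 0.64, standard error 0.19, 95% confidence interval 0.23 to 1.05, limma adjusted p = 0.0387) and was higher in 3 of 3 same-numbered pairs. In control macrophages the value was 1.30-fold (log2 fold change 0.38, standard error 0.19, interval -0.03 to 0.79, limma adjusted p = 0.217), also higher in 3 of 3 pairs. The difference between these responses was itself tested and did not pass (interaction 0.27, interval -0.32 to 0.85, limma adjusted p = 0.99998). The value in control macrophages was 0.53 without replicate 2 and 0.25 without replicate 3 of unstimulated control macrophages, and the interaction was 0.11 and 0.39 without these arrays. Between ΔTrspM and control macrophages Cybb differed by -0.26 on the log2 scale in unstimulated cells (interval -0.67 to 0.15, limma adjusted p = 0.99986) and was lower in 3 of 3 same-numbered pairs, and after LPS it differed by 0.0044 (interval -0.41 to 0.42) and was lower in 1 of 3 pairs. The unstimulated difference was -0.11 without replicate 2 of unstimulated control macrophages and -0.39 without replicate 3. In order of level, the LPS-stimulated groups had nearly equal means (13.67 ± 0.07 in ΔTrspM and 13.67 ± 0.09 in control, SD, n = 3 each), followed by unstimulated control (13.29 ± 0.28) and unstimulated ΔTrspM macrophages (13.03 ± 0.15), and the last pair overlapped.

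The rise of Cybb in ΔTrspM macrophages was close to the threshold. It was not called with no scaling (log2 fold change 0.38, limma adjusted p = 0.583), with an offset of 1 (0.0526), or when only the arrays compared were fitted (0.0749), and it was called with median centring of the arrays (log2 fold change 1.08, adjusted p = 0.0130) and in the fit with a block for the replicate number (0.0173). Leaving out 1 array at a time kept the log2 fold change at 0.57 to 0.72, with an adjusted p of 0.0287 to 0.147. The call was lost without any 1 of the 6 ΔTrspM arrays, without replicate 1 of unstimulated control macrophages, and without replicate 1 or 3 of LPS-stimulated control macrophages, and 0.61 was the log2 fold change without the array of low signal. Of the neutrophil markers measured, 1 of 9 (Camp) rose after LPS in each genotype, and their summed normalized signal was 8628 to 19589 in LPS-stimulated ΔTrspM, 8179 to 18470 in LPS-stimulated control, 5495 to 11017 in unstimulated ΔTrspM and 6953 to 12688 in unstimulated control macrophages. Over the 12 arrays the deposited signal of S100a8 was 939 to 8893, that of Elane 14.2 to 395 and that of Cxcr2 3.6 to 94.9. Their part in the value of Cybb was not tested, and in a bulk culture more cells of a type and more RNA per cell cannot be told apart.

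Cybb was read by 3 probe sets, and all of them were higher after LPS in 3 of 3 pairs of each genotype. In a fit of all 34945 probe sets, 1 of the 13 probe sets of the members was called after LPS in ΔTrspM macrophages, where 12.9% of all probe sets were called, and 1 of 13 in control macrophages, where 13% were called. Both calls belonged to the Cybb probe set 1436779_at. Its log2 signal was 12.77, 13.38 and 12.89 in LPS-stimulated ΔTrspM, 12.90, 13.26 and 12.98 in LPS-stimulated control, 11.25, 11.73 and 11.61 in unstimulated ΔTrspM and 11.73, 12.19 and 11.72 in unstimulated control macrophages. No LPS array overlapped an unstimulated array of the same genotype. The probe set was 2.80-fold higher after LPS in ΔTrspM macrophages (log2 fold change 1.48, standard error 0.24, limma adjusted p = 0.00235) and 2.25-fold higher in control macrophages (1.17, standard error 0.24, limma adjusted p = 0.0080), with an interaction of 0.32 (interval -0.43 to 1.06).

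The remaining Cybb probe set varied most between replicates. Probe set 1422978_at had a log2 signal of 11.76, 13.35 and 13.07 in LPS-stimulated ΔTrspM, 13.22, 13.53 and 12.93 in LPS-stimulated control, 11.57, 12.03 and 11.60 in unstimulated ΔTrspM and 12.45, 13.08 and 11.65 in unstimulated control macrophages. Replicate 1 of the LPS-stimulated ΔTrspM arrays was low and overlapped the unstimulated ones. Its log2 fold change after LPS was 0.99 in ΔTrspM macrophages (standard error 0.43, limma adjusted p = 0.175) and 0.84 in control macrophages (adjusted p = 0.260). In the fit of all probe sets 1436778_at had an adjusted p of 0.0528 in ΔTrspM macrophages and was not called. In unstimulated cells all 3 probe sets were lower in ΔTrspM than in control macrophages in 3 of 3 pairs, with overlap of the groups. The log2 difference was -0.35 for 1436779_at (interval -0.88 to 0.18) and -0.66 for 1422978_at (interval -1.61 to 0.30), and neither passed the test (limma adjusted p = 0.99997 for both). The probe sets used for Ncf1 and Ncf4 were also lower in 3 of 3 unstimulated pairs, and that of Rac1 was higher in 3 of 3. An exact p from 3 pairs cannot go below 0.25, and the share of all genes with such pairs was not counted. The 3 Cybb probe sets read the RNA of 1 gene in the same cultures. The mean of the 3 probe sets was called in ΔTrspM macrophages (log2 fold change 1.04, limma adjusted p = 0.0195).

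**Figure D2:**
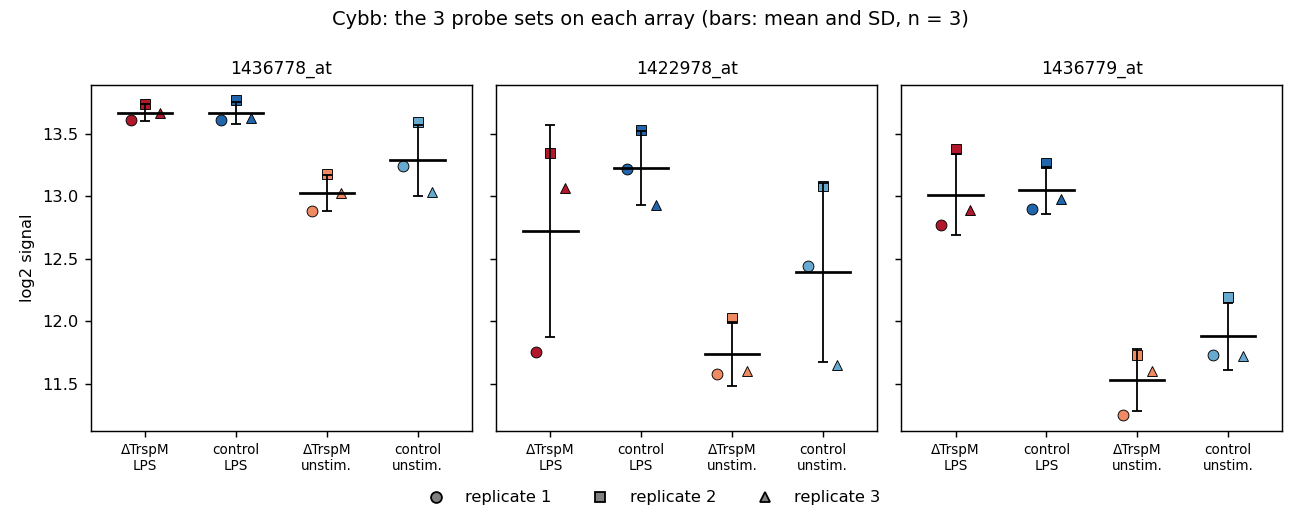
Log2 signal (vertical axis) of the 3 Cybb probe sets on each array, by group (horizontal axis), with the mean and SD in black (n = 3) and the replicate number by symbol. The LPS arrays of 1436779_at lie at 12.77 to 13.38 and its unstimulated arrays at 11.25 to 12.19, while 1 LPS-stimulated ΔTrspM array of 1422978_at lies at 11.76 among the unstimulated ones.

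Cyba encodes the partner of the catalytic subunit in the membrane, without which the flavocytochrome is unstable. Its only probe set (1454268_a_at) had a log2 signal of 13.70, 13.54 and 13.58 in LPS-stimulated ΔTrspM and 13.71, 13.57 and 13.71 in LPS-stimulated control macrophages. It was 13.68, 13.67 and 13.72 in unstimulated ΔTrspM and 13.78, 13.72 and 13.67 in unstimulated control macrophages. All neighbouring groups overlapped in the order unstimulated control, unstimulated ΔTrspM, LPS-stimulated control and LPS-stimulated ΔTrspM. The log2 fold change after LPS was -0.09 in ΔTrspM macrophages (interval -0.42 to 0.25) and -0.06 in control macrophages (interval -0.40 to 0.27), and both were above 0 (0.30 and 0.26) with median centring of the arrays. Between ΔTrspM and control macrophages it was -0.06 after LPS (interval -0.39 to 0.28) and -0.03 in unstimulated cells (interval -0.37 to 0.30). These intervals do not show that Cyba was left unchanged.

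Ncf1 encodes the organizer subunit that binds the flavocytochrome once phosphorylated. The log2 signal of its brightest probe set (1456772_at) was 12.94, 12.99 and 13.44 in LPS-stimulated ΔTrspM and 12.91, 13.12 and 13.43 in LPS-stimulated control macrophages. It was 12.68, 12.79 and 12.91 in unstimulated ΔTrspM and 12.72, 12.88 and 12.94 in unstimulated control macrophages. The LPS arrays were higher in 3 of 3 pairs of each genotype, without overlap in ΔTrspM macrophages and with overlap in control macrophages. The log2 fold change after LPS was 0.33 in ΔTrspM macrophages (standard error 0.20, limma adjusted p = 0.328) and 0.31 in control macrophages (standard error 0.20, limma adjusted p = 0.364), and neither passed the test. Replicate 3 had the highest LPS arrays, and without that LPS array the value was 0.17 in ΔTrspM and likewise 0.17 in control macrophages. With no scaling the value in ΔTrspM macrophages was -0.22. The other Ncf1 probe sets had log2 fold changes of 0.17 and 0.28 in ΔTrspM and of 0.14 and 0.37 in control macrophages (1425609_at and 1451767_at in this order). Their LPS arrays overlapped the unstimulated ones in both genotypes, and in ΔTrspM macrophages each was higher in only 2 of 3 pairs. The genotypes differed by -0.03 after LPS (interval -0.48 to 0.42) and by -0.05 in unstimulated cells (interval -0.50 to 0.40).

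Ncf4 encodes a cytosolic subunit that binds phosphatidylinositol 3-phosphate, a lipid of the phagosome membrane. Of the probe sets used for the 6 genes, that of Ncf4 had the largest differences between the genotypes, although those of the Cybb probe set 1422978_at were larger. The log2 signal of its only probe set (1418465_at) was 12.75, 12.42 and 12.46 in LPS-stimulated ΔTrspM and 12.99, 12.74 and 12.76 in LPS-stimulated control macrophages. It was 12.60, 12.45 and 12.32 in unstimulated ΔTrspM and 13.09, 12.74 and 12.66 in unstimulated control macrophages. The ΔTrspM array was lower than the control array in 6 of 6 same-numbered pairs, by 0.24 to 0.49 on the log2 scale. Of all genes, 2.37% were lower in 6 of 6 pairs. These pairs are 3 replicate numbers under 2 stimuli. Arrays of the same number were correlated, so the 6 cannot be taken as independent. The groups did not overlap in unstimulated cells and overlapped after LPS, and 3.17% of all genes were lower without overlap in unstimulated ΔTrspM macrophages. The log2 difference was -0.29 after LPS (interval -0.71 to 0.13, limma adjusted p = 0.939) and -0.37 in unstimulated cells (interval -0.79 to 0.04, limma adjusted p = 0.99986). Over both stimuli it was -0.33 (standard error 0.13, interval -0.63 to -0.04), with an unadjusted p of 0.0312 and a limma adjusted p of 0.963, and 4.88% of all genes had an unadjusted p under 0.05 in that comparison. The difference therefore did not pass the test across all genes, nor with the replicate number as a block (limma adjusted p = 0.393).

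In the same 6 pairs the ratio of the 3′ to the 5′ control probe sets for actin, a measure of how whole the labelled RNA was, was higher on the ΔTrspM array, by 0.03 to 0.44 on the log2 scale. The same ratio for Gapdh went both ways between the genotypes. After LPS it was 0.954, 0.679 and 0.861 in ΔTrspM and 0.865, 0.883 and 0.884 in control macrophages. In unstimulated cells it was 0.842, 0.838 and 0.856 in ΔTrspM and 0.830, 0.848 and 0.870 in control macrophages. The part of either ratio in the value of Ncf4 was not tested. Without 1 array at a time the difference of Ncf4 over both stimuli was -0.38 to -0.27, and without scaling it was -0.75, where the median of all genes was -0.33. LPS left the level of Ncf4 within the spread of the arrays. The log2 fold change was 0.09 in ΔTrspM macrophages (interval -0.33 to 0.51) and 0.003 in control macrophages (interval -0.42 to 0.42), and the first was -0.61 with no scaling.

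Rac1 encodes the broadly expressed Rac GTPase. The log2 signal of its brightest probe set (1451086_s_at) was 12.73, 12.99 and 13.05 in LPS-stimulated ΔTrspM and 12.79, 12.98 and 12.91 in LPS-stimulated control macrophages. It was 13.29, 13.17 and 13.31 in unstimulated ΔTrspM and 13.22, 13.01 and 13.24 in unstimulated control macrophages. All LPS arrays lay below all unstimulated arrays of the same genotype, and probe set 1423734_at showed the same separation. The log2 fold change after LPS was -0.33 in ΔTrspM macrophages (standard error 0.17, limma adjusted p = 0.226) and -0.27 in control macrophages (standard error 0.17, limma adjusted p = 0.344), and neither passed the test. The value in control macrophages was 0.10 with median centring of the arrays. For 1423734_at the log2 fold changes were -0.30 in ΔTrspM and -0.26 in control macrophages. The suffix of 1451086_s_at marks probes that can match transcripts of more than 1 gene, and the remaining probe set (1437674_at) had deposited signals near the floor of the arrays. The genotypes differed by 0.03 after LPS (interval -0.34 to 0.40) and by 0.10 in unstimulated cells (interval -0.27 to 0.47).

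Rac2 encodes the Rac GTPase of blood cells. The log2 signal of its brightest probe set (1417620_at) was 11.99, 12.20 and 12.03 in LPS-stimulated ΔTrspM and 12.10, 12.39 and 12.11 in LPS-stimulated control macrophages. It was 11.86, 11.64 and 12.06 in unstimulated ΔTrspM and 12.24, 11.50 and 12.17 in unstimulated control macrophages. The groups overlapped in every comparison. The log2 fold change after LPS was 0.22 in ΔTrspM macrophages (interval -0.27 to 0.72) and 0.23 in control macrophages (interval -0.27 to 0.73), with 1 array, replicate 2 of unstimulated control macrophages, setting the second value (-0.003 without it). The dim probe set 1440208_at was higher in all LPS arrays of each genotype, with a log2 fold change of 0.94 in ΔTrspM macrophages (limma adjusted p = 0.0936) and 0.83 in control macrophages (limma adjusted p = 0.139), and it did not pass. The genotypes differed by -0.13 after LPS (interval -0.62 to 0.37) and by -0.12 in unstimulated cells (interval -0.61 to 0.38).

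**Figure D3:**
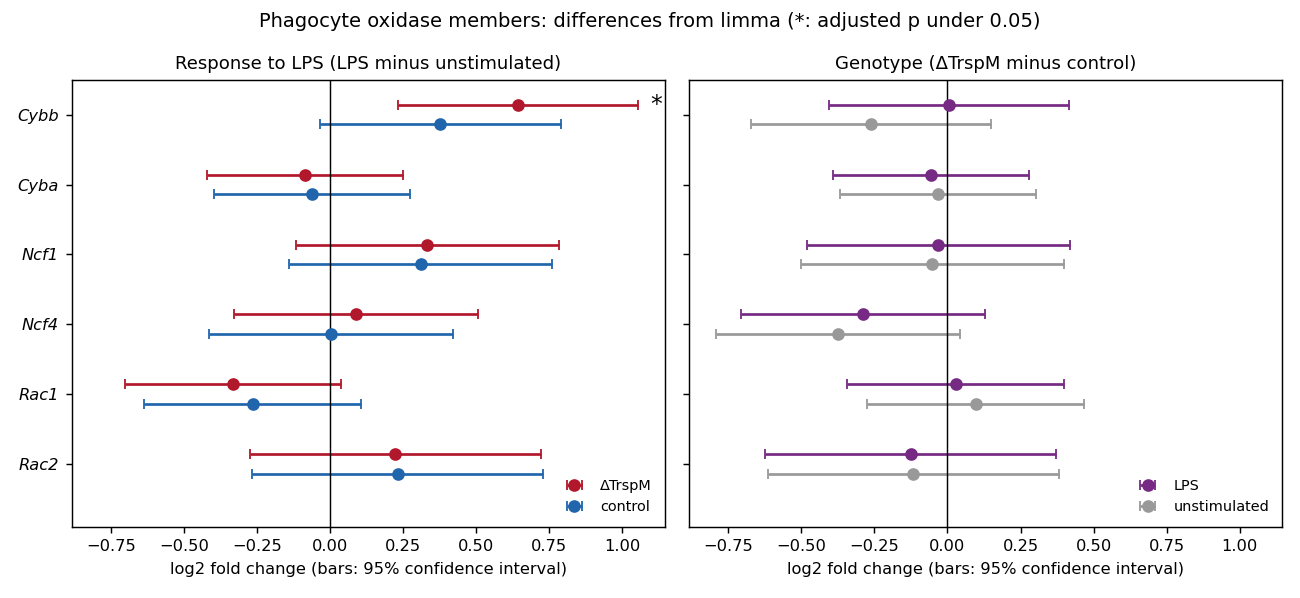
Log2 fold change (horizontal axis) of each member (vertical axis) with its 95% confidence interval from limma, for LPS minus unstimulated on the left and ΔTrspM minus control on the right. The star marks the only adjusted p under 0.05 (Cybb in ΔTrspM macrophages, 0.64), and the intervals of Ncf4 on the right end at 0.13 and 0.04.

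The arrays were also counted alone, for the probe set used for each gene. In ΔTrspM macrophages 2 of 6 members (Cybb and Ncf1) were higher without overlap after LPS, beside 14.8% of all genes. There 1 of 6 (Rac1) was lower, beside 19.5%. The other Ncf1 probe sets, 1422978_at of Cybb and the dim 1437674_at of Rac1 overlapped in both genotypes. In control macrophages 1 of 6 (Cybb) was higher without overlap, beside 14.7% of all genes, and 1 (Rac1) was lower, beside 19.4%. Over the 12 arrays the log2 signals of Cybb and Rac1 had a Pearson correlation of -0.83 and those of Cybb and Ncf1 of 0.61. Cyba and Ncf4 had a correlation of 0.52. These are descriptions over arrays that share the stimulus and the genotype. The genes with the profile most like that of Cybb over the 12 arrays were Trim14 (r = 0.979), Trim30a (0.975) and Znfx1 (0.970). For Rac1 they were E2f2 (0.945), Luc7l2 (0.935) and Nr2c2 (0.934). For Ncf4 they were P2rx4 (0.901), Tle4 (0.887) and Maf (0.821), and for Rac2 Lrrc75a (0.922), Trp53inp2 (0.915) and St8sia4 (0.912). Mocs2 (0.947), Tsga10 (0.919) and Cracdl (0.900) were closest to Cyba, and Pla2g6 (0.951), Sec23a (0.934) and Thegl (0.899) to Ncf1.

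Around the members, LPS moved genes that act on the oxidase in both genotypes, while in each of the lists below 0 genes passed a comparison of the genotypes or the interaction. Among other oxidase and NOX family components, of which 11 of 16 were measured, 1 fell (Cybc1) and 0 rose after LPS in ΔTrspM macrophages, and 1 fell (Cybc1) and 1 rose (Duox1) in control macrophages. Across all genes 7.29% rose and 8.51% fell in ΔTrspM and 7.09% rose and 8.54% fell in control macrophages. Those shares include dim genes. When genes under a mean log2 signal of 6 were left out, 11627 remained and larger shares were called. Of the 11627, 1391 rose and 1886 fell in ΔTrspM macrophages, and 1403 rose and 1925 fell in control macrophages. Whether the lists held more called genes than other genes of like brightness was not tested. Cybc1 encodes the chaperone that the flavocytochrome needs to reach its mature form. It had a mean log2 signal of 9.34 ± 0.36 in LPS-stimulated and 10.17 ± 0.17 in unstimulated ΔTrspM macrophages (log2 fold change -0.83, limma adjusted p = 0.0271, SD, n = 3 each). In control macrophages it was 9.44 ± 0.19 after LPS and 10.32 ± 0.19 without (log2 fold change -0.88, limma adjusted p = 0.0200). The fall in both genotypes was not called for the mean of the gene's probe sets (log2 fold changes -0.26 in ΔTrspM and -0.30 in control macrophages). It was also not called in ΔTrspM macrophages with only the arrays compared (limma adjusted p = 0.0780) and in control macrophages with no scaling (0.153). Duox1, a NOX family oxidase of epithelia, was dim, at 6.31 ± 0.56 in LPS-stimulated and 5.27 ± 0.35 in unstimulated control macrophages (log2 fold change 1.04, limma adjusted p = 0.0363). Its log2 fold change in ΔTrspM macrophages was 0.14, and the difference between the genotypes did not pass (interaction -0.90, unadjusted p = 0.0551 from limma). Its call in control macrophages was lost with no scaling (limma adjusted p = 0.461), with only the arrays compared (0.0998) and with the trend and robust options (0.0570). The call of Cybc1 was lost in ΔTrspM macrophages without any unstimulated array or LPS replicate 3 of that genotype, and in control macrophages without unstimulated replicate 2 or 3 or LPS replicate 1 or 3. That of Duox1 was lost without replicate 1 of unstimulated ΔTrspM, replicate 1 or 2 of unstimulated control or replicate 2 or 3 of LPS-stimulated control macrophages.

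Of the exchange factors, inhibitors and GTPase-activating proteins of Rac, 12 of 13 were measured, 4 fell and 0 rose after LPS in each genotype, and the 4 were Vav1, Vav2, Tiam1 and Arhgap25. Vav1, the exchange factor of blood cells that loads Rac with GTP downstream of tyrosine kinases, had a log2 fold change of -0.75 in ΔTrspM macrophages (limma adjusted p = 0.0171) and of -0.97 in control macrophages (0.00399). Vav2, a relative of it, had a log2 fold change of -1.57 in ΔTrspM macrophages (limma adjusted p = 0.00579) and of -1.41 in control macrophages (0.00977). Tiam1, another Rac exchange factor, changed by -1.86 in ΔTrspM macrophages (limma adjusted p = 0.00559) and by -1.22 in control macrophages (0.0433). Arhgap25, which turns Rac off by speeding GTP hydrolysis, changed by -1.73 in ΔTrspM macrophages (limma adjusted p = 0.0216) and by -2.12 in control macrophages (0.00717). The 4 that fell thus hold activators and an inhibitor of Rac. With no scaling Vav1 (limma adjusted p = 0.165), Vav2 (0.0549) and Tiam1 (0.101) were not called in control macrophages. With only the arrays compared, Vav1 was not called in ΔTrspM macrophages (limma adjusted p = 0.0539) and Tiam1 not in control macrophages (0.0616), and an offset of 1 also ended that call of Tiam1 (0.0622). For the mean of its probe sets Tiam1 was not called in either genotype (-0.62 in ΔTrspM and -0.76 in control macrophages). Its call in control macrophages was lost without any 1 of 7 arrays (unstimulated replicate 1 and LPS replicate 3 of ΔTrspM, unstimulated replicates 1 and 2 and all LPS arrays of control macrophages). In ΔTrspM macrophages the call of Vav1 was lost without unstimulated replicate 2 or LPS replicate 3, and that of Arhgap25 without unstimulated replicate 1 or 3 or LPS replicate 2 or 3.

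Of the kinases and lipid enzymes that act on the oxidase, 13 of 17 were measured, and 2 rose and 0 fell in each genotype. Syk, the tyrosine kinase of Fc and C-type lectin receptors, had a mean log2 signal of 12.88 ± 0.21 in LPS-stimulated and 11.09 ± 0.23 in unstimulated ΔTrspM macrophages, a rise of 1.79 (limma adjusted p = 0.000170, SD, n = 3 each). In control macrophages it was 12.94 ± 0.20 after LPS and 11.04 ± 0.09 without, a rise of 1.90 (limma adjusted p = 0.000103). Prkcd, a protein kinase C that phosphorylates the organizer subunit, rose by 1.11 in ΔTrspM macrophages (limma adjusted p = 0.00402) and by 0.95 in control macrophages (0.00872). With no scaling, neither was called in ΔTrspM macrophages (log2 fold changes 1.14 for Syk and 0.45 for Prkcd). Prkcd was then not called in control macrophages either (0.95, limma adjusted p = 0.318).

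Of the genes listed here as negative regulators of the oxidase 5 of 6 were measured, and 2 fell in ΔTrspM and 3 in control macrophages, with 0 that rose. Inpp5d, the lipid phosphatase SHIP1, had a mean log2 signal of 9.08 ± 0.54 in LPS-stimulated and 11.85 ± 0.22 in unstimulated ΔTrspM macrophages (log2 fold change -2.77, limma adjusted p = 0.000152, SD, n = 3 each). In control macrophages it was 8.90 ± 0.42 after LPS and 12.12 ± 0.19 without (log2 fold change -3.22, limma adjusted p = 4.68e-05). Nrros, which lowers the amount of the catalytic subunit by sending it to degradation, was at 9.75 ± 0.46 in LPS-stimulated and 12.07 ± 0.13 in unstimulated ΔTrspM macrophages (log2 fold change -2.33, limma adjusted p = 0.000913). In control macrophages Nrros was at 9.67 ± 0.71 after LPS and 12.15 ± 0.04 without (log2 fold change -2.48, limma adjusted p = 0.000549). Rubcn, an autophagy protein that binds the flavocytochrome, had a log2 fold change of -0.83 in ΔTrspM macrophages (limma adjusted p = 0.0624) and of -1.09 in control macrophages (0.0183), where it passed. The interaction of 0.27 did not pass. With the replicate number as a block Rubcn was called in ΔTrspM macrophages as well (limma adjusted p = 0.0157), as it was with no scaling (0.0238), median centring (0.0123), an offset of 64 (0.04005), the filter on dim genes (0.0370) or without LPS replicate 1 of ΔTrspM (0.0408). In control macrophages its call was lost with no scaling (limma adjusted p = 0.131). Rubcn is known to favour the oxidase during phagocytosis, so its fall should not be counted as that of a negative regulator. The activity of the enzyme was not measured here. The call of Rubcn in control macrophages was lost without replicate 1 or 3 of unstimulated or replicate 2 or 3 of LPS-stimulated control macrophages (its log2 fold change was -1.29 to -0.96 over the 12 arrays left out in turn).

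Of the transcription factors known to act on oxidase genes, 10 of 13 were measured, and 4 rose and 1 fell in ΔTrspM macrophages and 3 rose and 1 fell in control macrophages. Irf1, an interferon regulatory factor, had the largest rise, 3.48 in ΔTrspM (limma adjusted p = 2.21e-05) and 3.05 in control macrophages (4.09e-05) on the log2 scale. Rela, an NF-κB subunit, rose by 1.14 in ΔTrspM (limma adjusted p = 0.00347) and by 1.18 in control macrophages (0.00267). Cebpb rose by 0.56 in ΔTrspM (limma adjusted p = 0.0495) and by 0.69 in control macrophages (0.0198), and its relative Cebpa changed by -1.80 in ΔTrspM (limma adjusted p = 0.00175) and by -2.24 in control macrophages (0.000413). The remaining rise in ΔTrspM macrophages was that of Spi1, which encodes PU.1 and was named after its value was seen (log2 fold change 0.73 in ΔTrspM, limma adjusted p = 0.0381, and 0.43 in control macrophages, 0.218). With no scaling the calls of Rela and Cebpb were lost in ΔTrspM macrophages (limma adjusted p = 0.603 and 0.835 in this order) and in control macrophages (0.2202 and 0.509). That of Cebpb was also lost with only the arrays compared (limma adjusted p = 0.105 in ΔTrspM and 0.0783 in control macrophages) and in ΔTrspM macrophages with an offset of 1 (0.0641). The call of Cebpb in ΔTrspM macrophages was lost without any 1 of 11 arrays and kept only without replicate 1 of unstimulated control macrophages, and in control macrophages it was lost without that array or LPS replicate 2. The called values of the named genes kept their direction under every alternative run, which did not include Spi1.

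**Figure D4:**
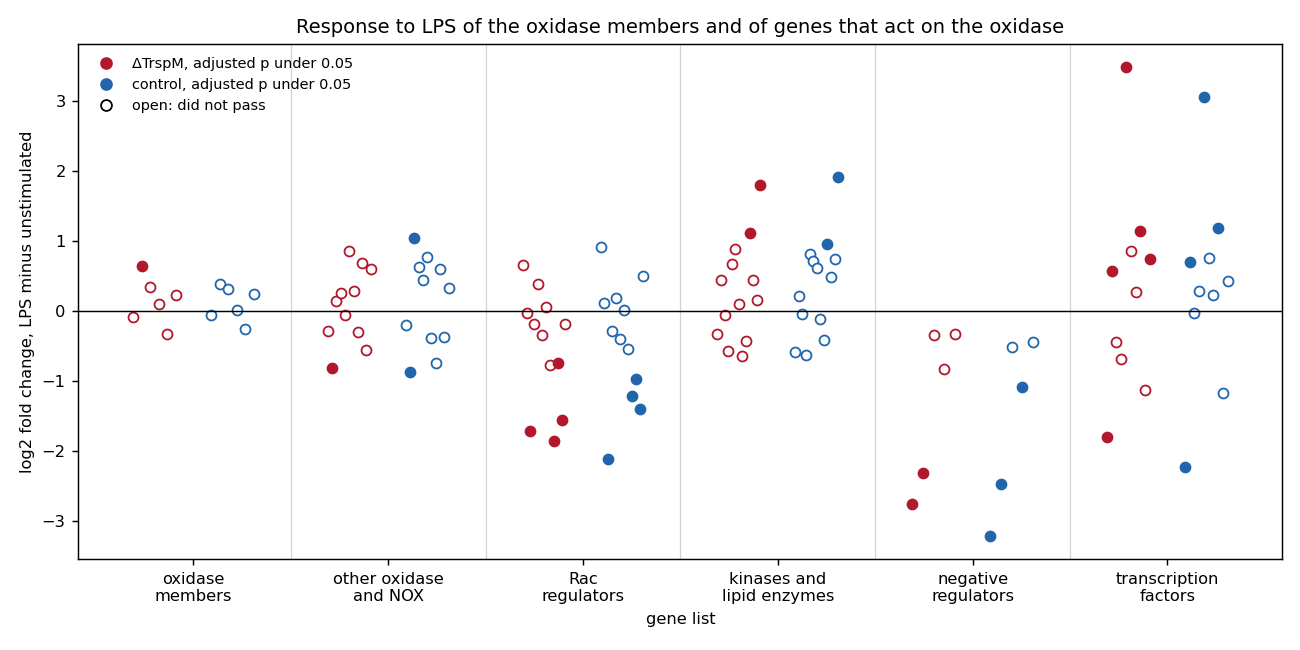
Log2 fold change after LPS (vertical axis) of each measured gene of the 6 lists (horizontal axis), with ΔTrspM macrophages in red on the left of each list and control macrophages in blue on the right; filled points had an adjusted p under 0.05 from limma and open points did not. The members lie between -0.33 and 0.64, while Inpp5d and Nrros of the negative regulators lie at -3.22 to -2.33 and Irf1 of the transcription factors lies at 3.05 and 3.48.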

How the data were processed

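RNA from 12 BMDM cultures was hybridized to Affymetrix GeneChip arrays of the whole mouse genome. Normalization by the authors used Expression Console, and the values they deposited are linear signal intensities of 45101 probe sets. How probes were summarized is not stated. After removal of 64 control probe sets, 45037 were quantile-normalized, 16 was added and log2 was taken, which understates changes of dim genes. Of these, 34945 carried 1 symbol, 932 several and 9160 none. Each of 18193 genes was read from its probe set with the highest mean log2 signal. Groups came from the sample labels. The 4 groups were fitted together with limma 3.58.1 in R 4.3.3 (8 residual degrees of freedom), with Benjamini-Hochberg adjustment over all genes and a threshold of 0.05. The fit alone was tested on simulated data with independent arrays. That test did not cover the normalization, the array of low signal or the correlation of same-numbered arrays. The exact permutation p of 3 arrays against 3 cannot go below 0.1. The number of arrays limits the precision.

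The members and lists were chosen with earlier results of these data known. Named were every member, up to 4 genes of each list that passed for LPS (smallest p first), any that passed for genotype or interaction, and the 3 genes most correlated with each member at a mean log2 signal of at least 6. After removal of group means, same-numbered arrays of compared groups correlated at 0.126 to 0.442 in 12 of 12 pairs, so the numbers were taken to pair the cultures. What the numbers stand for is not given. The main fit and its p-values did not use these pairs, and the fit with the replicate block is an alternative. Alternatives were no scaling, centring of each array on its median, offsets of 1 and 64, the mean of the probe sets, each probe set on its own, a filter at a mean log2 signal of 6 (11627 genes), only the arrays compared, trend and robust options, the methods' t-test, the replicate block (6 residual degrees of freedom) and each array left out. Promoter windows are those of RefSeq (GRCm38.p6).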

Additional observations from a re-analysis of the deposited data

How the results depend on the processing

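The limits are mostly those of 3 arrays in a group and of scaling. No member was called between ΔTrspM and control macrophages, or for the interaction, under any alternative run. The replicate number as a block changed no member's call and no count of calls by more than 1.5 times (for LPS in ΔTrspM macrophages Cybb kept its call, with an adjusted p of 0.0173 from limma in the fit with the replicate block). With the block more genes were called for LPS. In ΔTrspM macrophages 1689 rose and 2397 fell, against 1326 and 1548 in the main fit. In control macrophages 1664 rose and 2444 fell, against 1290 and 1554. With no scaling the median of all genes moved to -0.73 and -0.25 for LPS in ΔTrspM and control macrophages, to -0.60 and -0.33 between the genotypes after LPS and over both stimuli, and to -0.59 for the interaction (-0.18 with median centring). The methods' t-test gives no value for the mean over stimuli or the interaction.

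Counts of genes called changed as follows. Between the genotypes after LPS the count of 2 became 1 with median centring or the mean of probe sets, 4 with an offset of 64, and 0 with the filter on dim genes, only the arrays compared or the methods' t-test. In unstimulated cells the count of 0 became 4 with an offset of 64 or the trend and robust options and 3 with the mean of probe sets or the filter. Over both stimuli the count of 4 became 1 with no scaling or median centring and 2 with the filter. For the interaction the count of 0 became 3 with an offset of 1. For LPS the 2874 genes of ΔTrspM macrophages became 1376 by the methods' t-test and 4503 for every probe set on its own, and the 2844 of control macrophages became 824 by the t-test, 893 with no scaling and 4544 for every probe set. With 1 array left out at a time these counts were 1704 to 3075 for LPS in ΔTrspM and 1912 to 3114 in control macrophages, 2 to 5 between the genotypes after LPS, 0 to 1 in unstimulated cells, 3 to 4 over both stimuli and 0 to 1 for the interaction. The count of members called for LPS in ΔTrspM macrophages became 0 with no scaling, an offset of 1 or only the arrays compared and was 0 to 1 with an array left out, and in control macrophages it became 1 for every probe set on its own.

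The values that changed sign were those of members and that of Duox1, which is not a member, for LPS in ΔTrspM macrophages. None of these values had passed the test. With no scaling, the log2 fold change for LPS in ΔTrspM macrophages became -0.22 for Ncf1, -0.61 for Ncf4, -0.61 for Rac2 and -0.32 for Duox1, the difference between the genotypes after LPS became -0.32 for Cybb and -0.67 for Rac1, that over both stimuli became -0.33 for Rac1, and the interaction became -0.034 for Cybb, -0.58 for Ncf1 and -0.66 for Ncf4. With median centring, Cyba became 0.053 between the genotypes after LPS, 0.017 in unstimulated cells, 0.035 over both stimuli, 0.30 for LPS in ΔTrspM, 0.26 in control macrophages and 0.037 for the interaction. Rac1 became -0.16 between the genotypes after LPS, -0.020 over both stimuli and 0.10 for LPS in control macrophages, and the interaction became -0.17 for Ncf1 and -0.25 for Ncf4. With the mean of probe sets, Cybb became -0.18 between the genotypes after LPS, and the interaction became -0.014 for Ncf1, 0.042 for Rac1 and 0.051 for Rac2. Read on their own, 1422978_at and 1436779_at of Cybb gave -0.50 and -0.034 between the genotypes after LPS, where 1440208_at of Rac2 gave 0.054. Probe set 1423734_at of Rac1 gave -0.064 after LPS, -0.019 in unstimulated cells and -0.042 over both stimuli, and 1437674_at of Rac1 gave 0.28 for LPS in ΔTrspM, 0.042 in control macrophages and 0.24 for the interaction. The interaction was 0.11 for 1440208_at of Rac2 and -0.093 for 1451767_at of Ncf1. The cause of these changes was not tested.

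With 1 array left out at a time, the difference between the genotypes after LPS ranged from -0.030 to 0.055 for Cybb, -0.19 to 0.11 for Ncf1 and -0.033 to 0.12 for Rac1. In unstimulated cells it ranged from -0.12 to 0.0036 for Ncf1 and -0.35 to 0.017 for Rac2, and over both stimuli from -0.12 to 0.028 for Ncf1. For LPS it ranged from -0.017 to 0.16 for Ncf4 in ΔTrspM macrophages, and from -0.084 to 0.13 for Ncf4 and -0.0034 to 0.37 for Rac2 in control macrophages. The interaction ranged from -0.073 to 0.0090 for Cyba, -0.14 to 0.16 for Ncf1, -0.045 to 0.17 for Ncf4, -0.13 to 0.028 for Rac1 and -0.14 to 0.23 for Rac2. The alternatives for the genes of the other lists were chosen after seeing the data. With no scaling, Syk, Prkcd, Rela and Cebpb were not called in ΔTrspM macrophages, and Cybc1, Duox1, Vav1, Vav2, Tiam1, Prkcd, Rubcn, Rela and Cebpb not in control macrophages. The replicate block added the call of Rubcn in ΔTrspM macrophages. By the methods' t-test Cybc1 (adjusted p = 0.130 in ΔTrspM and 0.0670 in control macrophages), Vav2 (0.101 and 0.0664) and Tiam1 (0.0874 and 0.157) were called in neither genotype, and Duox1 (0.209), Arhgap25 (0.167), Prkcd (0.0819), Nrros (0.0611), Rubcn (0.10) and Cebpb (0.0751) were not called in control macrophages.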
